A study of Mus musculus with 12 samples.

Results

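The genes described here are 9 genes of myelin and of oligodendrocyte differentiation, chosen by symbol: Mbp, Mog, Mag, Mobp, Mal, Cnp, Ugt8a, Enpp6 and Bcas1. All 9 were found in both deposited tables, among the 45563 symbols used. They were measured by RNAseq in primary oligodendrocyte precursor cells (OPCs) taken from the cortices of C57BL/6 mouse pups of postnatal day 2 to 5 and enriched with beads against PDGFRα, a receptor of OPCs. The cells came from WT pups or from pups with a germline TNFR2-/- genotype, which every cell of the animal carries. At day 3 in vitro they received the cytokines TNF, IFNγ and IL1β, at 25 ng/mL each for 3 h, or PBS vehicle. The 4 groups were WT non-stimulated (WT NS), TNFR2-/- NS, WT stimulated (WT St) and TNFR2-/- St, with 3 libraries each, numbered 2, 3 and 4 for WT and 2, 4 and 5 for TNFR2-/-. All groups were kept in medium with PDGF-AA and FGF2, which maintain OPCs, and none of these libraries came from differentiation medium.

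Oligodendrocytes wrap axons in myelin, a stack of membrane that insulates the axon. They arise from OPCs through a committed precursor stage, and the genes of the myelin sheath are turned on late in that passage. Mbp encodes myelin basic protein, which holds the inner faces of the membrane together, and Mobp encodes another small basic protein of compact myelin. Mog encodes a glycoprotein of the outermost myelin surface, Mag an adhesion molecule of the membrane next to the axon, and Mal a proteolipid of membrane trafficking. Cnp encodes an enzyme and membrane protein of non-compact myelin, and Ugt8a makes galactosylceramide, a main myelin lipid. Enpp6, a choline phosphodiesterase, and Bcas1 are used as markers of newly forming oligodendrocytes, before and at the onset of myelination.

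Each library held 26886878 to 30335265 read pairs by the totals recovered from the FPKM. Reads on Tnfrsf1b, the gene of TNFR2, were more numerous in the libraries labelled TNFR2-/- than in those labelled WT. They numbered 15, 12 and 24 in WT NS and 145, 61 and 105 in WT St, but 322, 346 and 213 in the libraries labelled TNFR2-/- NS and 282, 356 and 290 in those labelled TNFR2-/- St. The tables do not show on which exons these reads lay, so every direction between genotypes below is between libraries as labelled. OPC genes were high in all groups, with a summed level of 6295 to 8570 RPM (reads scaled to library size) over 12 genes, whereas 10 microglial genes summed to 9.84 to 13.1. Markers of other cell types were also read. Over 10 genes each, astrocyte markers summed to 2038 to 4837 RPM and neuronal markers to 734 to 1149. The neuronal sum is not a measure of neuron content, since its genes went different ways with stimulation. Tubb3 was higher in St by 3.06 in WT and 3.18 in TNFR2-/- on the log2 scale, and Snap25 changed by -0.97 and -0.94. Mural and fibroblast markers summed to 139 to 1350 RPM, also over 10 genes. Within a genotype, the NS and St libraries of one number deviated together from their group means over 13554 genes (r = 0.34 to 0.65 in 6 pairs, against -0.45 to 0.09 in 12 pairs of other numbers). They are therefore called one culture here, although the labels do not state this. Nothing in the labels says whether the cultures came from separate litters, so p-values measure only the spread between these samples. In bulk RNA, fewer cells of a type and less RNA per cell cannot be told apart.

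Promoters were available in RefSeq's table (GRCm38.p6) for 7 of the 9 genes, all but Mbp and Bcas1. The 250 bases before the start of transcription are shown for 5 of them, since the 9 genes fell into sets that varied together and these 5 stand for the sets. The first 3 follow one pattern over the cultures and the last 2 another, as described further on. Capitals mark matches, on either strand, to ACAAAG or ACAATG (bound by SOX factors), CANNTG (E-box), CTGGCAC or CTGGTAC (MYRF), TTCNNNGAA (GAS), GGANTTTCC (NF-kB), TATAAA or CCAAT. Overlapping matches share their capitals. The windows are chr9:120149492-120149741 on the plus strand for Mobp, chr17:37023399-37023648 on the minus strand for Mog, chr7:30914864-30915113 on the minus strand for the first of 3 Mag starts, chr11:100574689-100574938 on the plus strand for Cnp and chr8:46986637-46986886 on the plus strand for Enpp6.
Mobp: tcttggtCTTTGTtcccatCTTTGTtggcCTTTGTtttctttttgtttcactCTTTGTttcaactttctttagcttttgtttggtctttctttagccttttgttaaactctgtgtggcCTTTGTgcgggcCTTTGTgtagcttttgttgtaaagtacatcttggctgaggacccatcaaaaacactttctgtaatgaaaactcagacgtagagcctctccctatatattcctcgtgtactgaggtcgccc
Mog: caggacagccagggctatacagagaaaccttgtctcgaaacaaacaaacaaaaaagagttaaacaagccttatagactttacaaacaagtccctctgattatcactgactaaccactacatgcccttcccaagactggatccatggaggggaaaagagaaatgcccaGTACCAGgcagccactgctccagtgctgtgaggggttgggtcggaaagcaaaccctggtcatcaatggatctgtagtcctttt
Mag: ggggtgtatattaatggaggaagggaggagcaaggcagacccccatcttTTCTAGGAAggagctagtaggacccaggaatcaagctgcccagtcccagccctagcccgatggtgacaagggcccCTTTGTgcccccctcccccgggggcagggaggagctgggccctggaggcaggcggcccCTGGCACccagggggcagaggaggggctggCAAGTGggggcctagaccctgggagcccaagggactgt
Cnp: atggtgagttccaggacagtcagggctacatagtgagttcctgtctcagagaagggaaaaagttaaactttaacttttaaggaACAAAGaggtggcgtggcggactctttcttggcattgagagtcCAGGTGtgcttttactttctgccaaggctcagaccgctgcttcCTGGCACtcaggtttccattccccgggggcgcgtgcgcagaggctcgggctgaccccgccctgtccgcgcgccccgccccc
Enpp6: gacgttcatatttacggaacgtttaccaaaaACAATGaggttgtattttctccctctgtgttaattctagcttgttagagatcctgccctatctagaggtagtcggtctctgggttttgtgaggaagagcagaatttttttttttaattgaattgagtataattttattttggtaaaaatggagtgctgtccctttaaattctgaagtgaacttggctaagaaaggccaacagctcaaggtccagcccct

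The Mobp window held 6 matches of ACAAAG, all read as CTTTGT on the strand shown. Of 32536 promoter windows of this length, only 1, that of Mobp itself, held at least 6 (0.00307%). At least 1 was held by 16.5%, as by Mag and Cnp. A MYRF motif stood in 3 of the 7 genes, as CTGGCAC in Mag and Cnp and as CTGGTAC, on the other strand, in Mog. One or the other was present in 5.94% of all windows, CTGGCAC in 4.21% and CTGGTAC in 1.82%. MYRF is the transcription factor that oligodendrocytes need to turn on myelin genes. E-boxes were found in Mag, Cnp and Ugt8a, where 66.2% of all windows had one, and ACAATG in Enpp6 (10.5% of all windows). A GAS element stood in Mag (7.04%), and CCAAT in the windows of the other two Mag starts (33.8%). Neither GGANTTTCC (1.07%) nor TATAAA (12.3%) was present in any of the 7 genes. These are matches of letters in short windows, and Mobp's count was singled out after the windows were searched.

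All 9 genes were transcribed in these cultures, over a wide range of levels. The deposited FPKM had been divided by a number of bases that differed from the exon length, such as 94 for Cnp against 3639 annotated exon bases, so FPKM compare one gene between libraries but not one gene with another. RPM per kilobase of annotated exon was used for the order of the genes. By this measure Bcas1 was highest, with a mean of 216 over the 12 libraries (149 to 406), followed by Cnp at 77.9 (54.1 to 150.1), Mbp at 33.7 (15.3 to 57.0) and Ugt8a at 19.9 (12.3 to 27.7). Mag followed at 8.91 (4.17 to 13.8) and Enpp6 at 3.77 (1.19 to 11.2). Mog at 2.71 (0.548 to 4.20), Mobp at 2.66 (0.463 to 4.40) and Mal at 1.78 (0.444 to 3.03) were lowest. The ranges of neighbouring genes overlapped all along this order, which is an order of means only. Read counts were lowest for Mog, with 28 to 215 reads per library, and Mal, with 37 to 253, whereas Mbp had 3894 to 14523. Cnp (ENSMUSG00000006782; chromosome 11, 100574904 to 100591729, plus strand) shares 154 exon bases with Dnajc7, a gene of up to 4110 reads on the other strand. Bcas1 (ENSMUSG00000013523; chromosome 2, 170346991 to 170427845, minus strand) shares 440 with the antisense gene Bcas1os1, which had up to 34 reads, and 34 with Bcas1os2, which had up to 147. Ugt8a (ENSMUSG00000032854) lies on chromosome 3, 125865271 to 125938619, and Mal (ENSMUSG00000027375) on chromosome 2, 127633226 to 127656695, both on the minus strand, in GRCm38 as all positions here. Counting by strand was not stated for these data, so reads in shared bases cannot be assigned.

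Cultures of one group differed widely in most of the genes. Mobp was 21.3, 9.21 and 2.24 FPKM in WT NS cultures 2, 3 and 4, a span of 9.50-fold among libraries of one label. In the same cultures after stimulation it was 20.2, 9.99 and 3.15 FPKM. Culture 2 was thus high and culture 4 low at both conditions. The libraries labelled TNFR2-/- lay closer together, at 15.6, 18.7 and 15.1 FPKM in NS and 11.6, 16.8 and 10.6 FPKM in St for cultures 2, 4 and 5. All of these fell within the span of the WT cultures, so no groups were apart.

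**Figure D1:**
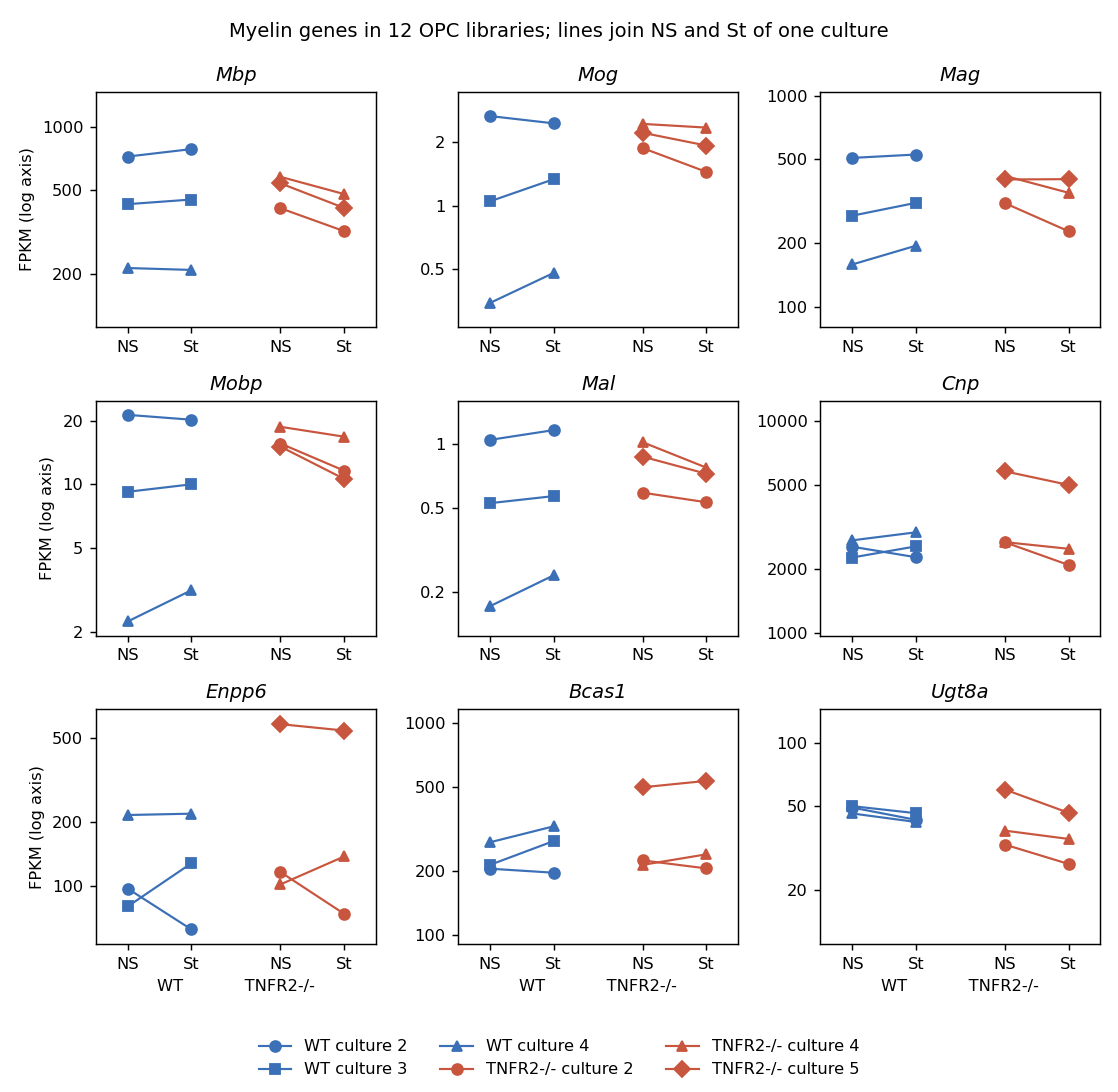
FPKM (log axis) of each gene in the 12 libraries, with NS and St of one culture joined by a line, WT at left and TNFR2-/- at right. Mbp, Mog, Mag, Mobp and Mal lie in the order of cultures 2, 3 and 4 in WT, whereas Cnp, Enpp6, Bcas1 and Ugt8a are highest in TNFR2-/- culture 5.

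The same order, culture 2 over 3 over 4 in WT at NS and at St, held for Mbp, Mog, Mag, Mobp and Mal. Mbp was 721, 429 and 214 FPKM in WT NS cultures 2, 3 and 4, and 782, 452 and 209.7 FPKM in WT St. In the libraries labelled TNFR2-/- it was 411, 578 and 539 FPKM in NS and 320.0, 479 and 412 FPKM in St, for cultures 2, 4 and 5. The WT cultures therefore spanned 3.37-fold in NS and the TNFR2-/- cultures 1.41-fold, inside the WT span. Mog was 2.65, 1.05 and 0.346 FPKM in WT NS and 2.45, 1.33 and 0.480 FPKM in WT St, against 1.87, 2.43 and 2.21 FPKM in TNFR2-/- NS and 1.44, 2.34 and 1.92 FPKM in TNFR2-/- St. Its WT span was 7.66-fold in NS. Mag was 507, 270.1 and 159 FPKM in WT NS, 526, 311 and 195 FPKM in WT St, 309.5, 417 and 401 FPKM in TNFR2-/- NS and 228, 347 and 402 FPKM in TNFR2-/- St. Mal, on 37 to 253 reads, was 1.05, 0.527 and 0.171 FPKM in WT NS, 1.17, 0.569 and 0.240 FPKM in WT St, 0.591, 1.02 and 0.875 FPKM in TNFR2-/- NS and 0.532, 0.776 and 0.726 FPKM in TNFR2-/- St. Culture 4 was highest among the TNFR2-/- cultures for these 5 genes in NS, and in St for all of them but Mag.

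Enpp6, Bcas1 and Cnp followed another order. Enpp6 was 582 FPKM in TNFR2-/- NS culture 5 but 116 and 102 FPKM in cultures 2 and 4, and 543 FPKM in the St library of culture 5 but 73.7 and 138 FPKM in the others. In WT it was highest in culture 4, at 96.9, 79.8 and 216 FPKM in NS and 62.2, 128 and 219 FPKM in St, that is, in the culture with the least Mbp, Mog, Mag, Mobp and Mal. Bcas1 was 498 FPKM in TNFR2-/- NS culture 5, against 224 and 214 FPKM in cultures 2 and 4, and 534 FPKM in St, against 206 and 239.8. In WT it was 205, 214 and 273 FPKM in NS and 196, 277 and 325 FPKM in St, with culture 4 again highest. Cnp was 5809 FPKM in TNFR2-/- NS culture 5, against 2681 and 2686 FPKM, and 5009 FPKM in St, against 2094 and 2498. The WT cultures differed little in Cnp, at 2555, 2271 and 2739 FPKM in NS and 2279, 2564 and 2989 FPKM in St. Ugt8a was nearly even over the WT cultures, at 49.3, 50.0 and 46.2 FPKM in NS and 43.1, 46.3 and 42.1 FPKM in St. In the libraries labelled TNFR2-/- it was 32.9, 38.3 and 59.9 FPKM in NS and 26.6, 35.0 and 46.5 FPKM in St, and was highest in culture 5 like these 3 genes.

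Correlations over the 12 libraries, which share cultures in pairs, describe the same sets. On log2(FPKM + 0.5), Pearson's r was 0.89 to 0.98 among the 10 pairs of Mbp, Mog, Mag, Mobp and Mal, and 0.94 to 0.97 among the 3 pairs of Cnp, Enpp6 and Bcas1. Between the sets it was -0.31 to 0.20 in 15 pairs. Ugt8a had an r of 0.50 to 0.56 with Cnp, Enpp6 and Bcas1 and of -0.12 to 0.24 with the other five. The sets were drawn after these values were seen and were given no test.

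**Figure D2:**
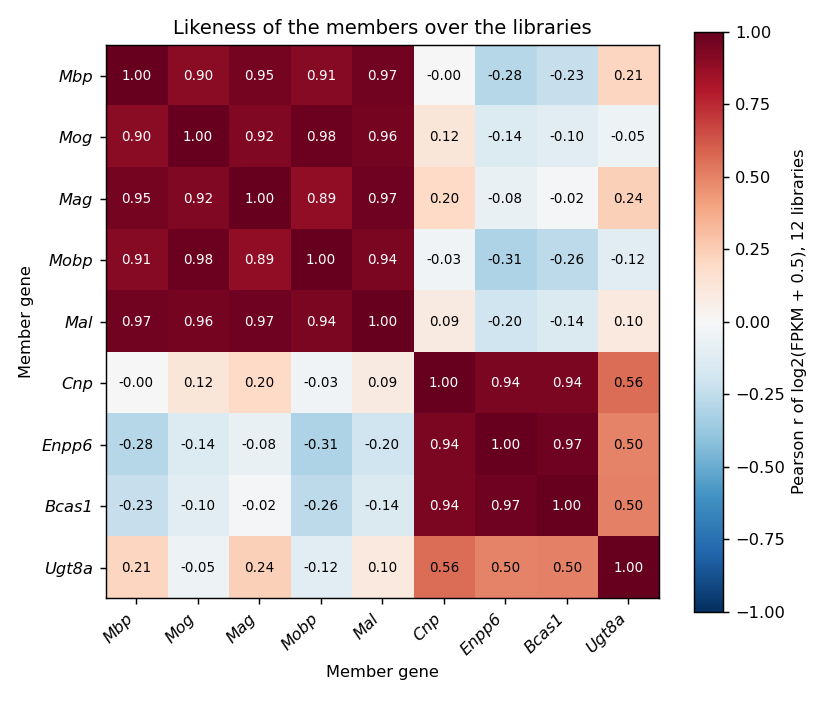
Pearson r of log2(FPKM + 0.5) between each pair of the 9 genes over 12 libraries, coloured from -1 (blue) to 1 (red). The block of Mbp, Mog, Mag, Mobp and Mal (0.89 to 0.98) and the block of Cnp, Enpp6 and Bcas1 (0.94 to 0.97) show little relation to each other.

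The genes most like each member were sought among those of at least 1 FPKM on average. Kndc1 was among the first 3 for Mbp, Mog, Mag, Mobp and Mal, with r from 0.93 to 0.97. S1pr5, a sphingosine-1-phosphate receptor of oligodendrocytes, ranked 3 for Mog (0.93) and Mobp (0.95). The gene most like Enpp6 was Myrf, the transcription factor named above (r = 0.99), followed by Lingo2 and Bcas1. Myrf was 1012 FPKM in TNFR2-/- NS culture 5, against 469 and 422 FPKM in cultures 2 and 4, and 557 FPKM in WT NS culture 4, against 455 and 368 in cultures 2 and 3. Bcas1 was most like Epcam (0.97) and Enpp6 (0.97). Cnp was most like Ulk1 (0.97), a kinase of autophagy, Plekhb1 and Lcat, and Ugt8a most like Tspan2 (0.97), a tetraspanin of myelin.

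**Figure D3:**
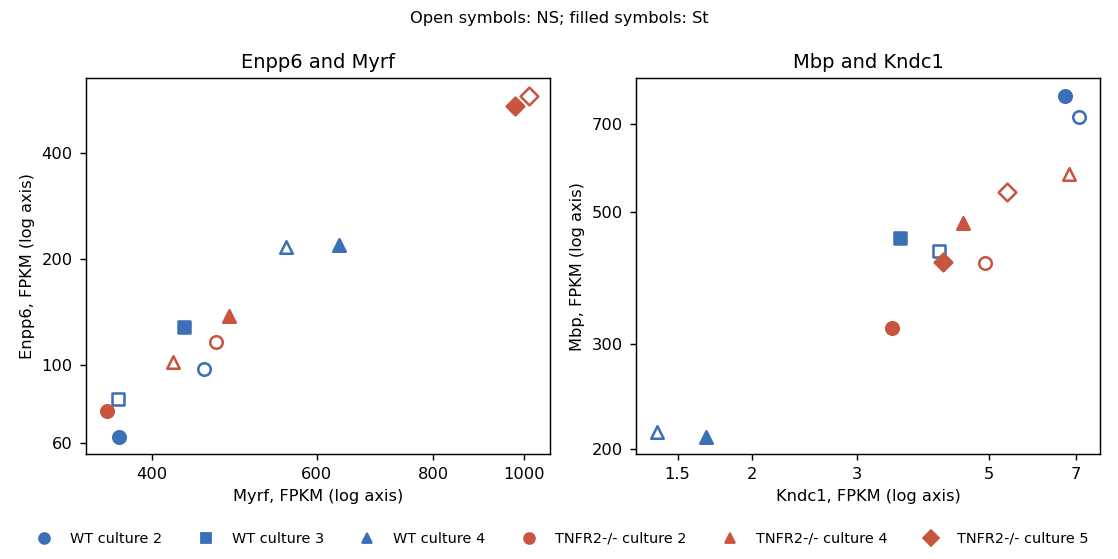
FPKM (log axes) of Enpp6 against Myrf and of Mbp against Kndc1 in the 12 libraries, with open symbols for NS and filled symbols for St. TNFR2-/- culture 5 is alone at the top of the Enpp6 plot, and WT culture 2 at the top and WT culture 4 at the bottom of the Mbp plot.

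Genes of the same lineage, listed by function, were set beside the members. A gene was counted for a culture where both of its libraries exceeded all 4 libraries of the other two cultures of that genotype. Of 18 other myelin genes averaging at least 1 FPKM, 8 stood highest in TNFR2-/- culture 5 (among them Cldn11, Gjc3, Tspan2, Nfasc and Pllp) and 7 in WT culture 2 (among them Cldn11, Ermn, Gjb1 and Apod). Of 13 genes of committed precursors, 11 stood highest in TNFR2-/- culture 5 and 6 in WT culture 4, among them Neu4, Itpr2, Fyn, Sirt2 and Tcf7l2 in both. Over all 13554 genes of that level, the shares were 14.4% for TNFR2-/- culture 5, 8.44% for WT culture 2 and 3.45% for WT culture 4. Markers of other cell types moved with culture 5 too. Of 10 astrocyte markers 7 stood highest there, Gfap, Aqp4, Slc1a2 and Gja1 among them, and their summed level was 4837 RPM in NS, against 3303 and 3094 in TNFR2-/- cultures 2 and 4. Mural and fibroblast genes were lowest in TNFR2-/- culture 5, at 207 RPM in NS and 139 in St over 10 genes, and highest in WT culture 4, at 1350 in NS and 1219 in St. The part of these cell types in the members' levels was not tested.

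The genotype comparison asks whether OPCs without TNFR2 differ in myelin genes before and after stimulation. Before stimulation 0 of the 9 genes were called between TNFR2-/- NS and WT NS, where 2.90% of the 18081 genes tested were called (limma, with adjusted p no higher than 0.05, a difference of 1.5-fold or more and at least 1 FPKM on average). Mal, at 0.687 FPKM on average, could not be called by this rule in any comparison. For 0 of 9 were the 3 libraries of one group apart from those of the other, against 34.2% of all genes. No member had an unadjusted p below 0.05 (0 of 9), and none passed with voom on recovered reads (0 of 9). Of the estimates, 8 of 9 were above 0, toward the libraries labelled TNFR2-/-, with a median log2 difference of 0.42 beside 0.04 over all genes. The members vary together, so these signs are not 9 separate results, and the share of all genes above 0 was not counted. The estimates were 1.02 ± 0.72 (SE, limma adjusted p = 0.376) for Mobp, 0.73 ± 0.46 (0.323) for Mog, 0.68 ± 0.84 (0.635) for Enpp6, 0.32 ± 0.49 (0.710) for Mbp and -0.20 ± 0.22 (0.599) for Ugt8a. Astrocyte markers moved with this comparison: 10 of 10 were higher in TNFR2-/- NS, 2 of them called (Gja1 and Fgfr3), and their summed level was 3094 to 4837 RPM, against 2168 to 2509 in WT NS. Of 8 mural and fibroblast markers tested, 7 were lower in TNFR2-/- NS, with a median of -0.68 and 0 called. OPC markers were lower in 9 of 12, with 1 called (Pcdh15). The part of these cell types in the members' differences was not tested. The Tnfrsf1b reads given above were higher in the libraries labelled TNFR2-/-. As their exons are not known, they cannot check the labels that define this comparison.

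After stimulation 0 of 9 genes were called between TNFR2-/- St and WT St, beside 1.80% of all genes, and 0 of 9 had groups apart, beside 32.7%. The estimates ran from -0.31 ± 0.22 (SE, limma adjusted p = 0.391) for Ugt8a to 0.55 ± 0.84 (0.712) for Enpp6. No member had an unadjusted p below 0.05 there or passed with voom (0 of 9 each). An SE of 0.22 to 0.84 on the log2 scale limited what 3 libraries a group could show. Astrocyte markers summed to 3078 to 4709 RPM in TNFR2-/- St and 2038 to 2112 RPM in WT St. Of 8 mural and fibroblast markers tested, 7 were lower in TNFR2-/- St, with a median of -1.16 and 0 called. OPC markers were lower in 9 of 12, with 2 called (Pdgfra and Lhfpl3). The part of these cell types was not tested. Of 21 other myelin genes tested, 1 was called in both genotype comparisons, Car2, the carbonic anhydrase of oligodendrocytes. It was higher in the libraries labelled TNFR2-/- by 0.69 ± 0.09 in NS (adjusted p = 0.00727) and by 0.64 ± 0.09 in St (adjusted p = 0.0102).

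The comparison of St with NS asks how 3 h of cytokines changed the genes. As a check on the treatment, 10 of 10 genes of the cytokine response, such as Irf1 and Cxcl10, were called higher in St in each genotype. Of the myelin genes, 0 of 9 were called in WT St vs WT NS (7.53% of all genes) and 0 of 9 in TNFR2-/- St vs TNFR2-/- NS (10.1% of all genes). Groups were apart for 0 of 9 in each, against 37.7% and 37.3% of all genes. No member had an unadjusted p below 0.05 in either, and with voom 0 of 9 passed. These fits carry the spread between cultures in their SE, which was 0.49 for Mbp.

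Mbp is the clearest case within cultures. Mbp changed by 8.45%, 5.17% and -2.04% in WT cultures 2, 3 and 4. In cultures 2, 4 and 5 labelled TNFR2-/- it changed by -22.1%, -17.1% and -23.5%. Mobp changed by -5.16%, 8.49% and 40.5% in the WT cultures, the last on 95 and 134 reads, and by -25.6%, -10.2% and -29.6% in the TNFR2-/- cultures. Of the 9 genes, 6 (Mbp, Mog, Mobp, Mal, Cnp and Ugt8a) were lower in St in 3 of 3 TNFR2-/- cultures, whereas 1, Ugt8a, was lower in all WT cultures. The share of all genes lower in all 3 cultures of a genotype was not counted, and the members vary together. The 6 and 1 are therefore description only. By the fitted change, 66.4% of all genes were lower in TNFR2-/- St and 61.2% in WT St, beside 8 and 1 of the 9 members. Enpp6 had no common direction: it changed by -35.9%, 60.1% and 1.47% in the WT cultures and by -36.6%, 35.6% and -6.72% in the TNFR2-/- cultures. All genes together shifted too, with a median log2 change of -0.12 to -0.10 within TNFR2-/- cultures and of about -0.05 within each WT culture.

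**Figure D4:**
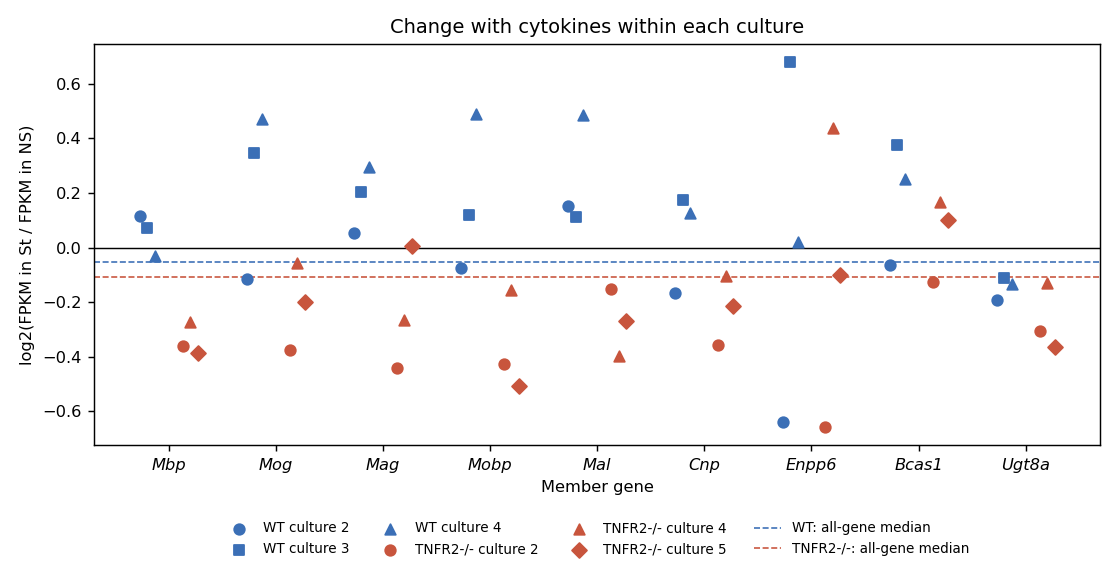
log2 ratio of FPKM in St to FPKM in NS within each of the 6 cultures for the 9 genes, with dashed lines at the mean of the cultures' all-gene medians for each genotype. All 3 TNFR2-/- cultures lie below 0 for Mbp, Mog, Mobp, Mal, Cnp and Ugt8a, and Mbp lies between -0.39 and -0.27 there.

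With cultures as blocks, 4 of 9 genes were lower in TNFR2-/- St than in TNFR2-/- NS at an adjusted p of at most 0.05, none of them by 1.5-fold. At that threshold 31.7% of all 18081 genes were lower and 45.1% changed in either direction, so a count of 4 of 9 does not set these genes apart. Mbp fell by 0.34 ± 0.04 on the log2 scale (SE, limma with cultures as blocks, adjusted p = 0.000709). Ugt8a fell by 0.26 ± 0.05 (adjusted p = 0.00664), Mobp by 0.35 ± 0.11 (adjusted p = 0.0355) and Cnp by 0.22 ± 0.08 (adjusted p = 0.0494). The median of all genes lay at -0.11, and Mbp, whose decline exceeded it, was past the threshold in 10 of 10 fits with cultures as blocks. Under median-of-ratios scaling, which moved the all-gene median to -0.02, Mbp was -0.22 ± 0.04 (adjusted p = 0.00600), while Ugt8a (adjusted p = 0.0729), Mobp (adjusted p = 0.136) and Cnp (adjusted p = 0.320) no longer passed. Those 10 fits include the 6 that left out 1 culture, in which Mbp had an adjusted p of 0.00130 to 0.00647. Leaving out a WT culture changes only the spread used in this comparison, not the TNFR2-/- estimate. In these 6 fits Cnp was past the threshold only without WT culture 2 (adjusted p = 0.0198), and otherwise had an adjusted p of 0.0556 to 0.215. Mobp was lost without WT culture 3, TNFR2-/- culture 2 or TNFR2-/- culture 5 (adjusted p = 0.0590, 0.134 and 0.163). Mag was -0.23 ± 0.09 (adjusted p = 0.0647), Mog -0.17 ± 0.10 (adjusted p = 0.228) and Bcas1 0.05 ± 0.09 (adjusted p = 0.710). Mural and fibroblast markers moved with this comparison. Of 8 tested, 7 were lower in TNFR2-/- St and 4 of these passed an adjusted p of 0.05 with cultures as blocks, with a median of -0.36 over the list, and 5 of 8 were higher in WT St, with a median of 0.05. Summed over 10 genes they were at 809.9, 434 and 207 RPM in TNFR2-/- NS cultures 2, 4 and 5 and at 693, 335 and 139 RPM in St. Their part in the members' changes was not tested.

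In WT, 0 of 9 genes passed an adjusted p of 0.05 with cultures as blocks, where 31.6% of all genes did, and 1 had an unadjusted p below 0.05. This was Ugt8a, at -0.14 ± 0.05 (SE, adjusted p = 0.0777), and Mbp was 0.05 ± 0.04 (adjusted p = 0.358). The SE of Mbp was as small here as in TNFR2-/-, since both come from one fit.

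**Figure D5:**
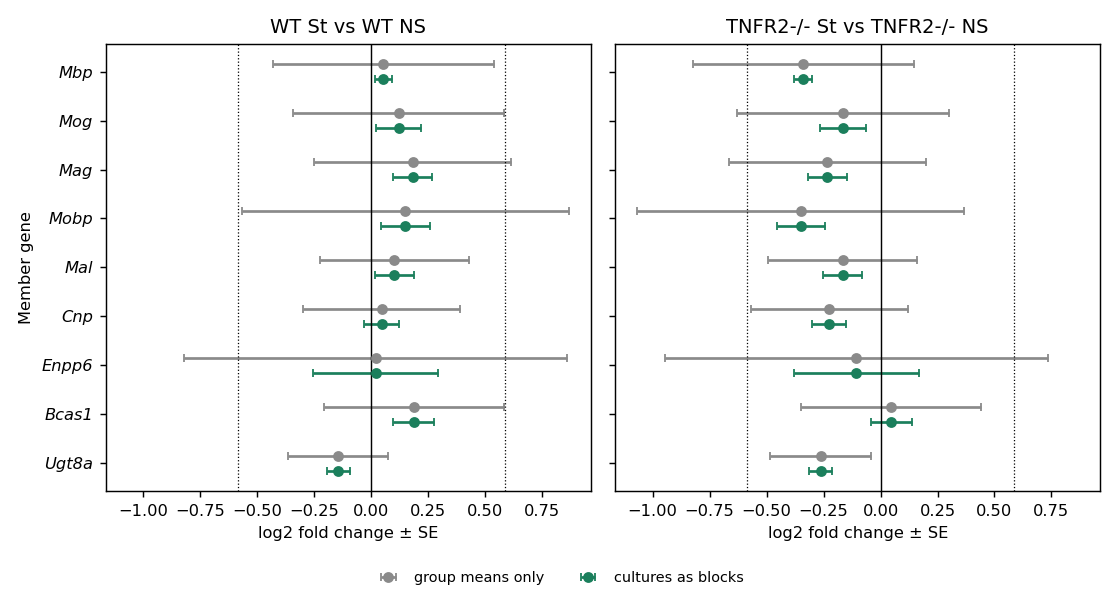
log2 fold change (St against NS) ± SE of the 9 genes in each genotype, from the fit of group means (grey) and the fit with cultures as blocks (green), with dotted lines at 1.5-fold. The blocked SE of Mbp is 0.04 against 0.49, and its TNFR2-/- value of -0.34 stays inside the dotted lines.

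Whether the response differed between genotypes was tested as the interaction. None of the 9 genes was called (0 of 9, beside 0.00553% of all genes), and with cultures as blocks 0 of 9 passed an adjusted p of 0.05 (again 0.00553% of all genes), although 4 had an unadjusted p below 0.05. All 9 estimates were below 0, with a median of -0.27 beside -0.05 over all genes, of which 59.6% were below 0. For the mural and fibroblast markers 6 of 8 were below 0, with a median of -0.39, none of them past an adjusted p of 0.05, and their part was not tested. As the members vary together, their 9 signs are not 9 separate results. Mbp had the smallest SE, at -0.39 ± 0.05 with cultures as blocks (unadjusted p = 0.000262, limma adjusted p = 0.0968). Mobp was -0.50 ± 0.15 (adjusted p = 0.149) and Mag -0.42 ± 0.12 (adjusted p = 0.140). With voom on the recovered reads and cultures as blocks, an analysis chosen after the data were seen, Mbp was -0.40 (adjusted p = 0.00401) and the only member to pass, where 6.19% of all genes did.

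Lineage regulators were called where the members were not. In a list of 16 lineage regulators, 15 were tested, and in each genotype 5 were called lower in St and 1 higher. Olig2, which OPCs need to enter the lineage, was lower by -1.23 ± 0.10 in WT (SE, limma adjusted p = 7.72e-06) and by -1.16 ± 0.10 in TNFR2-/-. Sox8, a SOX factor of oligodendrocytes, was -1.98 ± 0.22 and -2.32 ± 0.22, and Hes1, a repressor downstream of Notch, -1.95 ± 0.23 and -2.43 ± 0.23. Id4 was also called lower in both. The gene called higher was Sox10 in WT (0.61 ± 0.17) and Nkx6-2 in TNFR2-/- (1.15 ± 0.37). Both also had estimates above 0 in the other genotype, short of a call. Nkx6-2 was 1.14 ± 0.37 in WT (limma adjusted p = 0.0635) and Sox10 0.36 ± 0.17 in TNFR2-/- (adjusted p = 0.159). For the interaction with cultures as blocks, 0 of these 15 genes passed an adjusted p of 0.05. Myrf itself was not called in either genotype.

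Among 21 other myelin genes tested, only Ndrg1 was called in the fit of group means, higher in St by 1.19 ± 0.09 in WT and 1.27 ± 0.09 in TNFR2-/-. Their median log2 change was -0.06 in WT and -0.19 in TNFR2-/-. With cultures as blocks, 3 rose and 3 fell in WT at an adjusted p of at most 0.05, and 2 rose and 8 fell in TNFR2-/-. Those that fell in TNFR2-/- included Pllp (-0.47 ± 0.08, adjusted p = 0.00298) and Gjb1, a connexin (-0.76 ± 0.17, adjusted p = 0.0122). Of 13 genes of myelin lipids, beside Ugt8a, 8 fell and 2 rose in TNFR2-/-, and 2 fell and 2 rose in WT. Gal3st1, which adds sulfate to the lipid that Ugt8a makes, fell by 0.67 ± 0.13 in TNFR2-/- (adjusted p = 0.00673). Fa2h, which hydroxylates its fatty acid, fell there by 0.78 ± 0.15 (adjusted p = 0.00687). In WT the log2 changes were -0.22 for Gal3st1, -0.50 for Fa2h, -0.16 for Pllp and -0.08 for Gjb1. For the interaction with cultures as blocks, 0 of the 21 other myelin genes and 0 of the 13 lipid genes passed an adjusted p of 0.05. In the fit of group means 1 of the 13 was called in each genotype, Sgms1, a sphingomyelin synthase, which was lower in St. Of 14 committed precursor genes tested, Rras2 alone was called, and it was higher in St in both genotypes. With cultures as blocks, 7 fell and 2 rose in TNFR2-/-, and 6 fell and 2 rose in WT, with Gpr17, a receptor of committed precursors, lower by -0.98 ± 0.20 in WT (adjusted p = 0.0112) and -0.89 ± 0.20 in TNFR2-/- (adjusted p = 0.0118). The counts over lists with cultures as blocks stand beside 31.6% of all genes changed in WT and 45.1% in TNFR2-/-.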

How the data were processed

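RNA of OPC cultures was sequenced as paired-end reads in 12 libraries. A BGISeq-500 is given in the study's methods, but Illumina protocols in its labels, and the methods start the pups' age range a day later than the labels, whose ages are used here. By the same methods, Trim Galore was used for trimming, and STAR for alignment to GRCm38 with Ensembl annotation and for counting. The values used are the authors' FPKM as deposited, in 1 table for NS and 1 for St, with 45792 entries each. The 229 entries that share a symbol were left out. FPKM of a gene were whole multiples of 1 read, and whole reads were recovered for 26635 of 26636 genes above 0 in at least 2 libraries. Library totals of 26886878 to 30335265 read pairs were recovered with them. The authors' divisor was unrelated to gene length and sets only the scale of a gene.

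The 4 group means of log2(FPKM + 0.5) were fitted with limma 3.58.1 (R 4.3.3), with all 12 libraries and a prior that depends on the mean. The fold changes are on this scale, which understates changes of Mal and Mog. Tests covered the 18081 genes averaging 0.1 FPKM or more, and p-values were adjusted over all of them by Benjamini-Hochberg. A call needed an adjusted p of at most 0.05, a change of 1.5-fold and a mean of 1 FPKM, which Mal, at 0.687, did not reach. NS and St libraries of one number deviated together within a genotype (r = 0.34 to 0.65 in 6 pairs). Libraries of one number across genotypes had a lower r (-0.08 to 0.20 in 8 pairs), so cultures within a genotype were also fitted as blocks. Gene order used reads per kilobase of GENCODE M21 exons. The genes named beside the 9 members were list genes past the call, up to 4 of largest fold in a list, and the 3 genes most like each member. Genes named by their culture order, and list genes that passed only with cultures as blocks, were chosen after their values were seen, as were the sets of members. The members and lists were chosen with earlier results of these data known. The fits were tested on simulated data, where the changes put in were larger than those given for the members with cultures as blocks. Changes as small as the members' were not tested there. Other scalings, filters, pseudocounts, weights, blocks and libraries left out were tried, and voom on the recovered reads, which called 623 genes between genotypes in NS and 436 in St, and 1426 genes between St and NS in WT and 1943 in TNFR2-/-. Promoter sequences came from RefSeq (GRCm38.p6). Python 3.11.15 with pandas 2.3.3 and numpy 2.4.6 was used for counts, and matplotlib 3.10.9 for figures. Some genes of the lists are not reported here.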

Additional observations from a re-analysis of the deposited data

Results flagged for a closer look

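Mal, which encodes a proteolipid of membrane trafficking, had changes of opposite sign with stimulation in the WT cultures and in those labelled TNFR2-/-. In every WT culture it was higher in St, with a mean log2 change of 0.25 over 3 cultures, and in every culture labelled TNFR2-/- it was lower, with a mean of -0.27 over 3 cultures. This opposition of signs was not itself tested. The interaction with cultures as blocks, on log2(FPKM + 0.5), was -0.27 ± 0.12 (SE, limma adjusted p = 0.263), and Mal rests on 37 to 253 reads per library.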

How the results depend on the processing

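The count of members called stayed at 0 in all 150 alternative counts, over 34 settings of which 25 were chosen at the outset. Of 1300 alternative log2 values of single members, 85 had the other sign, and none of those was a call. The replicate block by number, which joins genotypes that the numbers do not pair, gave Enpp6 -0.25 and Bcas1 -0.079 in TNFR2-/- NS vs WT NS, and Cnp -0.22, Enpp6 -0.38 and Bcas1 -0.22 in TNFR2-/- St vs WT St. With it Ugt8a was -0.39 (limma adjusted p = 0.0409) between genotypes in NS and -0.51 (adjusted p = 0.0218) in St. Array weights gave Enpp6 -0.019 in TNFR2-/- NS vs WT NS, and Mbp 0.28, Mag 0.15, Cnp -0.11, Enpp6 -0.26 and Bcas1 -0.17 in TNFR2-/- St vs WT St. In WT St vs WT NS they gave Mbp -0.13, Mog -0.0040 and Mobp -0.0034. Quantile normalization, with or without cultures as blocks, gave Cnp -0.024 in WT St vs WT NS, and without them Mag 0.00842 in TNFR2-/- St vs WT St. Median-of-ratios scaling gave Mag 0.016 there and, with or without blocks, Enpp6 0.010 in TNFR2-/- St vs TNFR2-/- NS. For these reversals the cause was not tested.

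Cultures as blocks (a replicate block within genotype) moved the members past an adjusted p of 0.05 from 0 to 4 in TNFR2-/- St vs TNFR2-/- NS and changed no call by the full rule. The settings with blocks and another scaling, voom or a culture left out were chosen after seeing the data. Mbp held in all 10 fits with blocks (-0.37 to -0.22, limma adjusted p 4.32e-06 to 0.00647). Mobp was lost without WT culture 3 (adjusted p = 0.0590), TNFR2-/- culture 2 (adjusted p = 0.134) or TNFR2-/- culture 5 (adjusted p = 0.163), and in the fits that left out 1 culture Cnp passed without WT culture 2 alone (adjusted p = 0.0198, otherwise 0.0556 to 0.215). Mag passed only without TNFR2-/- culture 5 (adjusted p = 0.0158) and with voom and blocks (adjusted p = 0.0224), with which Mal also passed (adjusted p = 0.0385), as did Ugt8a (adjusted p = 0.0246) and Bcas1 (adjusted p = 0.0341) in WT.

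Leaving out 1 library at a time turned the sign of some log2 values. They ranged in TNFR2-/- NS vs WT NS for Mbp -0.14 to 0.73, Enpp6 -0.13 to 1.13 and Bcas1 -0.063 to 0.55. They ranged in WT St vs WT NS for Mbp -0.41 to 0.55, Mog -0.34 to 0.61, Mag -0.22 to 0.61, Mobp -0.65 to 0.84, Mal -0.20 to 0.40, Cnp -0.057 to 0.14 and Enpp6 -0.41 to 0.49. They ranged in TNFR2-/- St vs TNFR2-/- NS for Mag -0.41 to 0.0031, Cnp -0.60 to 0.15, Enpp6 -0.91 to 0.70 and Bcas1 -0.37 to 0.44. They ranged in TNFR2-/- St vs WT St for Mbp -0.58 to 0.37, Mag -0.35 to 0.36, Mobp -0.15 to 1.10, Mal -0.19 to 0.40, Cnp -0.18 to 0.45, Enpp6 -0.26 to 1.18 and Bcas1 -0.23 to 0.46. They ranged in the interaction for Mbp -0.89 to 0.067, Mog -0.77 to 0.18, Mobp -1.19 to 0.30, Mal -0.57 to 0.035, Cnp -0.65 to 0.10, Enpp6 -0.93 to 0.68, Bcas1 -0.56 to 0.25 and Ugt8a -0.32 to 0.13. With cultures as blocks and 1 culture left out, Cnp (-0.019) and Enpp6 (-0.31) turned in WT without WT culture 3, which also turned the interaction of Enpp6 (0.20). Enpp6 turned in TNFR2-/- without TNFR2-/- culture 2 (0.17; interaction 0.15), and Bcas1 without TNFR2-/- culture 4 (-0.013). Depth limits Mog, Mal and, in WT culture 4, Mobp, whose libraries hold as few as 28, 37 and 95 reads.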
